A study of Mus musculus with 35 samples.

Results

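The mitochondrial carrier family Slc25 was followed across primary mouse adipocyte cultures. Its members were all rows of the expression table that carry a single gene symbol starting with Slc25a, which gave 41 rows of 17958 and 40 genes, since Slc25a31, an ADP/ATP carrier known from the testis, has 2 rows. Each row is a transcript cluster of the Mouse Exon 1.0 ST array, a microarray that summarises probes along the exons of a gene, and each value is a log2 intensity, so that a difference of 1 is a doubling. Cells were grown from fat cell precursors of inguinal subcutaneous tissue of C57BL/6J and SV129 mice, in a medium with insulin that all cultures shared. The groups were C57BL/6J ROSI (n = 4), SV129 ROSI (n = 5), C57BL/6J NE (n = 5), SV129 NE (n = 5), C57BL/6J control (n = 4), SV129 control (n = 4), C57BL/6J day 3 (n = 4) and SV129 day 3 (n = 4). ROSI is rosiglitazone, an agonist of the nuclear receptor PPARG, and NE is norepinephrine, the transmitter of the sympathetic nerves of fat. ROSI was given at 1 µM from the first day of culture, and NE was given at 1 µM. Cultures with either drug were harvested at day 7, as were the untreated controls, and the day 3 cultures were untreated. The model is thus a precursor culture that differentiates in a dish, and neither the labels nor the methods give the age of the mice. Replicate numbers in the labels are not tied to separate mice, so each p-value measures only the spread between these cultures.

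Carriers of this family sit in the inner membrane of the mitochondrion and exchange small molecules that cannot cross it unaided. They move ADP against ATP, phosphate, the acids of the tricarboxylic acid cycle, amino acids, cofactors, iron and acylcarnitines, and they share a fold built of repeated pairs of transmembrane helices. In fat cells they link the mitochondrial matrix to fatty acid synthesis in the cytosol, to the burning of fatty acids and, through the uncoupling proteins, to heat. A few relatives are found in other membranes, such as Slc25a17 in the peroxisome and Slc25a46 in the outer mitochondrial membrane.

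The RefSeq promoter table (GRCm38.p6) held 40 promoters of 31 of the 40 genes. The 250 bases before the start are shown for Slc25a20 and Slc25a10, the members with the largest rise after ROSI, and for Slc25a24, the member with the largest fall. Capitals mark a GC box (GGGCGG or its reverse), a site of general promoter factors.
Slc25a20, chr9:108661886-108662135, plus strand: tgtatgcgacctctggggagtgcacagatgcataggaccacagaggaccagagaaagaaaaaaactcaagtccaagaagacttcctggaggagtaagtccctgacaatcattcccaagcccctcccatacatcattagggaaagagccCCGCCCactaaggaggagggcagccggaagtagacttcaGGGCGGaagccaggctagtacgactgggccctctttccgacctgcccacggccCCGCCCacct
Slc25a10, chr11:120491587-120491836, plus strand: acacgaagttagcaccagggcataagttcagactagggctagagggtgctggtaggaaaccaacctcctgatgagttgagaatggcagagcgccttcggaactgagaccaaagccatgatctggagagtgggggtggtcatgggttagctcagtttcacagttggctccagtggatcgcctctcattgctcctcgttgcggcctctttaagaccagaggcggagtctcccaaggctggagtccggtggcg
Slc25a24, chr3:109122899-109123148, plus strand: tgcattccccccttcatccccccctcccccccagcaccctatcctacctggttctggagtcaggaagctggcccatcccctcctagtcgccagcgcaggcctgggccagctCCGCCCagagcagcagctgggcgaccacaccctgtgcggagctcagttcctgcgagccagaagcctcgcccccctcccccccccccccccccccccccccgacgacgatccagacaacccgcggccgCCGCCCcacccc
The half-site of nuclear receptors (AGGTCA on either strand), a part of the element that PPARG binds with its partner RXR, was not found in these 3 stretches, while GC boxes stood 3 times before Slc25a20, 2 times before Slc25a24 and 0 times before Slc25a10. Slc25a34 did hold a half-site, which begins 119 bases before the start given in the promoter table, a start that lies inside the annotated span of the gene, and is shown in capitals with its neighbours.
Slc25a34, chr4:141623938-141623963, minus strand: cagtcacaagTGACCTttcctccaga
Over windows of 250 bases, the half-site was found in 4 of the 40 family promoters (10%), those of Slc25a34, Slc25a39, Slc25a47 and Slc25a45, and in 14% of all 32851 promoters. Direct repeat 1, a pair of half-sites in tandem with a single base between them, was found in 0 family promoters and in 0.0335% of all promoters. The GC box was found in 29 family promoters (72.5%) and in 32.7% of all promoters. The E-box (CACGTG) was found in 20% and 6.02%, and the core of the cAMP response element (TGACG or its reverse) in 25% and 17.8%. These are counts of letters on both strands, and no match says only that the letters are not in this window.

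The carriers described array by array lie apart in the mouse genome (GRCm38.p6). Slc25a20 spans chr9:108662136-108684642, Slc25a22 chr7:141429749-141437874 and Slc25a42 chr8:70184340-70212281. On chromosome 11, Slc25a10 spans chr11:120491837-120501161, Slc25a35 chr11:68968096-68972516 and Slc25a39 chr11:102402969-102408675. Slc25a12 (chr2:71274270-71367781) and Slc25a25 (chr2:32414487-32451470) share chromosome 2. Slc25a24 spans chr3:109123149-109168409, Slc25a33 chr4:149744036-149774267, Slc25a37 chr14:69241848-69285544 and Slc25a27 chr17:43637739-43667214. The row of a gene sums probes over its exons, so a value cannot be placed on a single exon here.

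Across the arrays the deposited medians lay between 8.03 and 8.24 and no pair of arrays was identical. Slc25a21 and both rows of Slc25a31 had means under the lower quartile of all rows (6.45). To see where each culture stood, its 41 values were projected on the line from the mean of the C57BL/6J controls (0) to the mean of the C57BL/6J ROSI cultures (1). On this scale, C57BL/6J ROSI cultures lay between 0.928 and 1.07. In SV129 ROSI, replicate 1 lay at 0.097 and replicate 6 at 0.447, and the other cultures between 0.743 and 0.916. SV129 ROSI replicate 1 was therefore next to the controls although its label says ROSI, and over all rows its position was 0.11. NE cultures lay between -0.111 and 0.272, C57BL/6J controls between -0.052 and 0.05, and SV129 controls between -0.114 and -0.081. Counts of ROSI calls are therefore given with and without SV129 ROSI replicates 1 and 6.

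**Figure D1:**
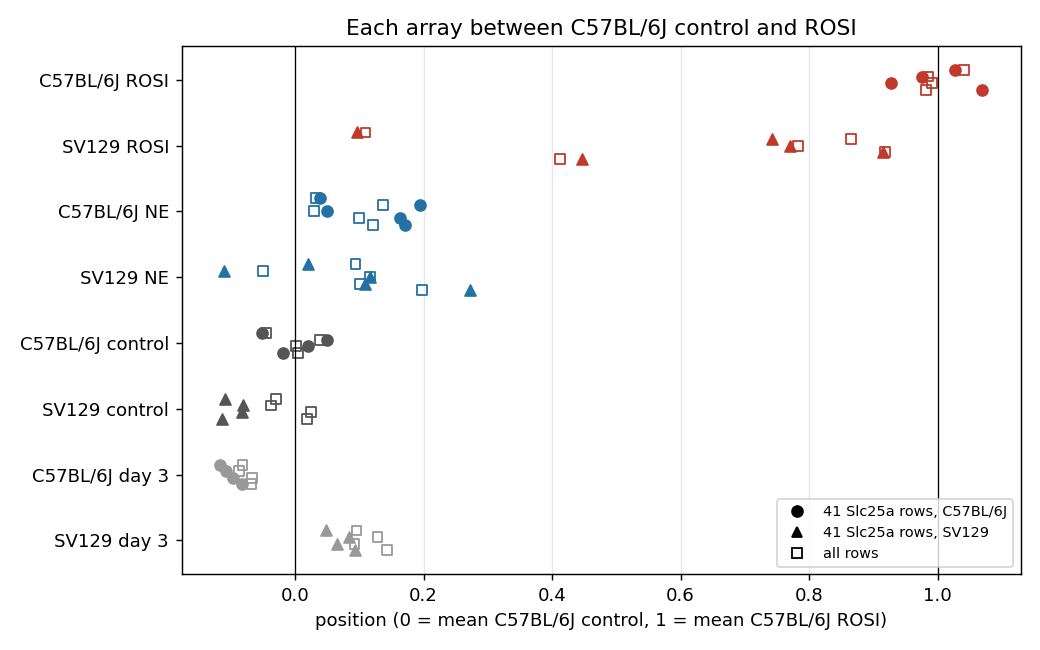
Position of each array on the line from the mean C57BL/6J control (0) to the mean C57BL/6J ROSI culture (1), for the 41 Slc25a rows (filled circles C57BL/6J, filled triangles SV129) and for all rows (open squares), by group. SV129 ROSI replicate 1 sits at 0.097 beside the NE and control cultures, and the C57BL/6J ROSI cultures sit between 0.928 and 1.07.

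Carriers were mostly higher after ROSI. Of the 41 rows, 21 (51.2%) were higher and 8 (19.5%) lower in ROSI (n = 9) than in control (n = 8) cultures at an adjusted p under 0.01 in limma with strain as a covariate, and 12 did not pass. Among all 17958 rows, 16.3% were called higher and 11.6% lower. The median log2 change was 0.18 over the family and 0.01 over all rows, and the members ranged from -0.68 (Slc25a24) to 1.57 (Slc25a20). All 29 called rows had the same sign in both strains, but they were called on both strains together, which favours like signs. Without SV129 ROSI replicates 1 and 6 the counts were again 21 and 8. Without these 2 cultures each change described array by array was larger in size and passed, from -0.76 for Slc25a24 to 1.80 for Slc25a20. The 2 were left out for their low position on these same rows, so larger changes follow from that choice. The values without them are no separate evidence. Of all calls 58.4% were higher, but 45.7% after quantile normalization and 47.3% after median centring, where the members gave 20 higher and 9 lower, and 21 higher and 9 lower.

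**Figure D2:**
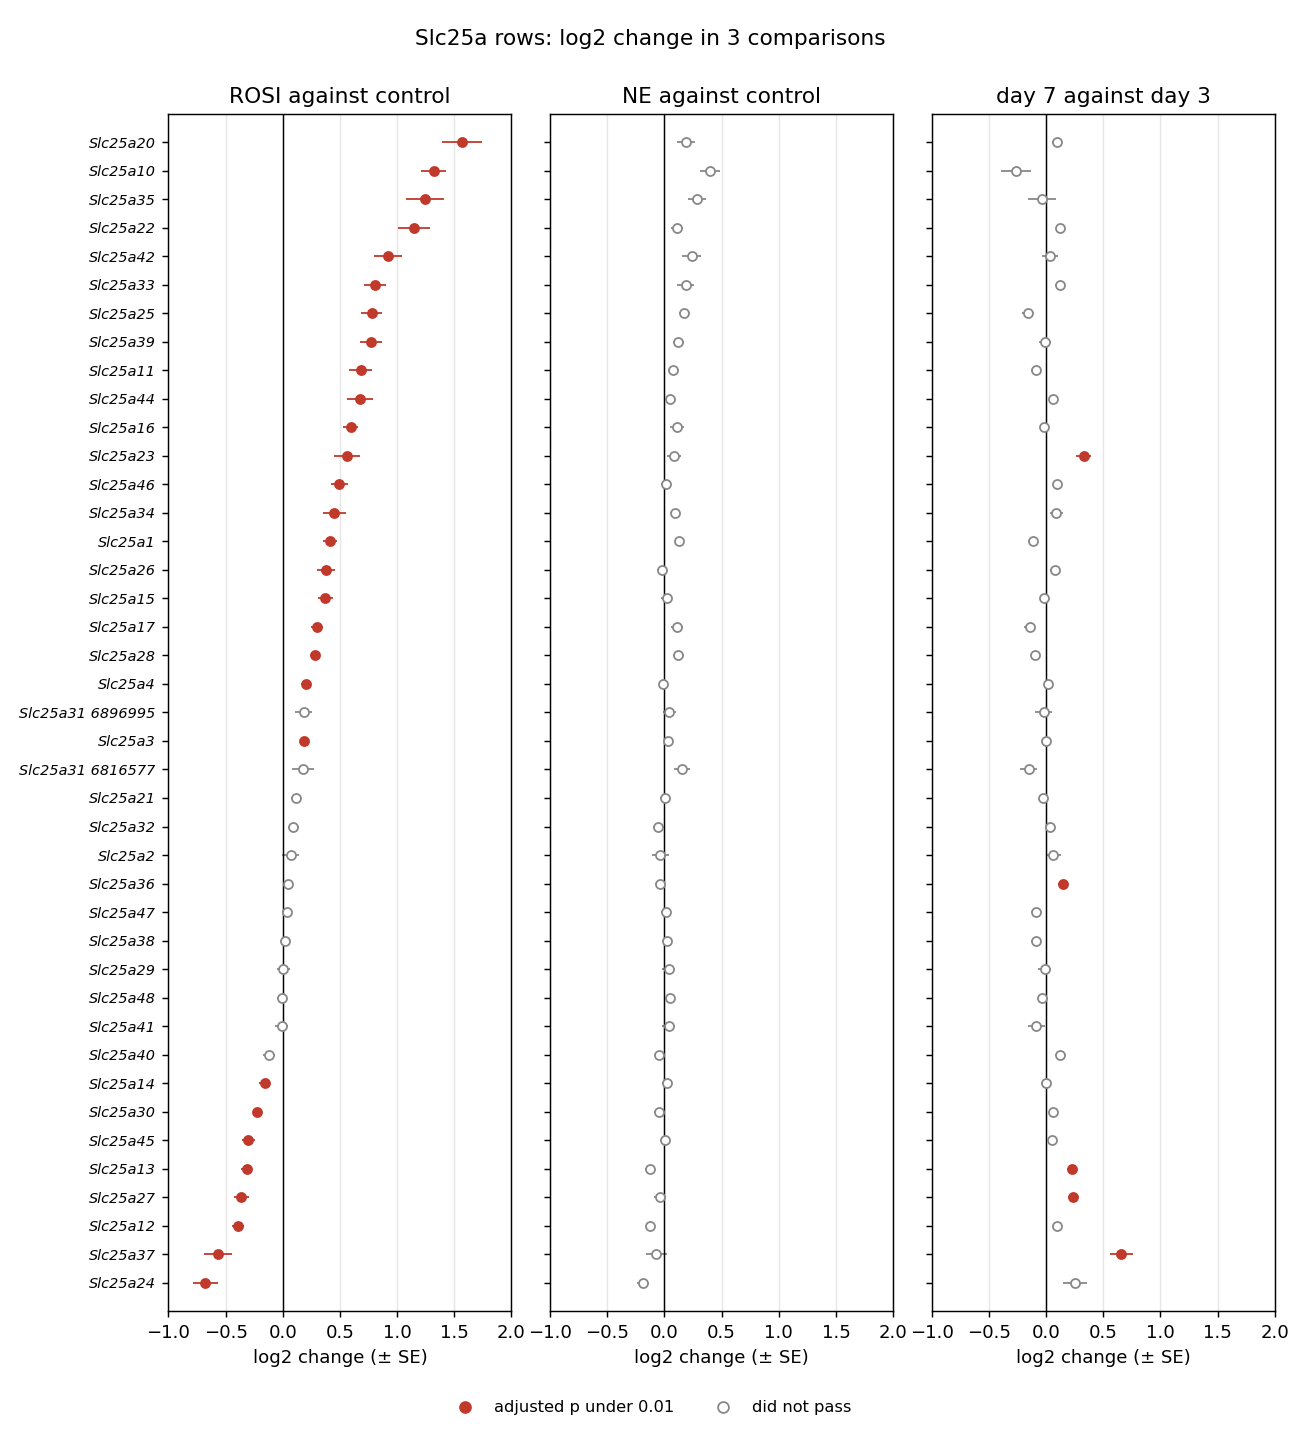
Log2 change with its SE for the 41 Slc25a rows in 3 comparisons (ROSI against control, NE against control, day 7 against day 3), ordered by the ROSI change, with filled red points for an adjusted p under 0.01 in limma. The ROSI column runs from 1.57 for Slc25a20 to -0.68 for Slc25a24, no NE point is filled, and 5 points are filled for day 7.

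Of the carriers of acylcarnitine and of di- and tricarboxylates, 4 of 5 rows were higher, where 16.3% of all rows were, and the median change of the 5 was 0.68. Slc25a20 brings acylcarnitines into the matrix for beta-oxidation. Its log2 intensity was 11.11, 11.12, 11.14 and 11.12 in C57BL/6J ROSI, against 9.14, 9.23, 9.07 and 9.21 in C57BL/6J control. In SV129 ROSI it was 9.51 in replicate 1, 10.84, 10.76 and 11.05 in replicates 2 to 4 and 10.22 in replicate 6, against 9.16, 9.21, 9.32 and 9.38 in SV129 control. No ROSI value overlapped a control value, although SV129 replicate 1 came close. The log2 change was 1.57 (SE 0.18, 2.96-fold, limma adjusted p = 3.6e-06).

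Slc25a10, which exchanges malate or succinate for phosphate, was the second in size. It read 11.89, 11.83, 11.76 and 11.93 in C57BL/6J ROSI, against 10.26, 10.60, 10.46 and 10.41 in C57BL/6J control. SV129 ROSI cultures had 10.62, 11.31, 11.58, 11.74 and 11.32, against 10.24, 10.06, 10.03 and 10.03 in SV129 control. Again no ROSI value fell into the control range, and the log2 change was 1.32 (SE 0.11, 2.49-fold, adjusted p = 5.1e-07). The oxoglutarate carrier Slc25a11 of the malate-aspartate shuttle rose by 0.68 (SE 0.10), with means of 11.90 ± 0.30 in ROSI and 11.23 ± 0.08 in control cultures (SD). The citrate carrier Slc25a1, which exports the carbon for fatty acid synthesis, rose by 0.41 (SE 0.06), with 12.37 ± 0.19 in ROSI and 11.96 ± 0.06 in control cultures. The oxoadipate carrier Slc25a21 had a change of 0.11 and did not pass (adjusted p = 0.044).

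Amino acid carriers split, with 3 of 8 rows higher and 2 lower (16.3% and 11.6% of all rows), and a median change of 0.04. The glutamate carrier Slc25a22 rose most. It had 10.19, 10.11, 9.95 and 10.42 in C57BL/6J ROSI, against 8.73, 8.75, 8.77 and 8.81 in C57BL/6J control. In SV129 the ROSI values were 8.94, 10.26, 9.68, 9.95 and 9.42, against control values of 8.66, 8.73, 8.75 and 8.80. SV129 ROSI replicate 1 was the lowest ROSI culture and still above every control. The log2 change was 1.14 (SE 0.14, 2.21-fold, adjusted p = 8e-06). The carrier of branched-chain amino acids Slc25a44 rose by 0.68 (SE 0.11) and the ornithine carrier Slc25a15 by 0.37 (SE 0.07). Slc25a44 lay between 11.19 and 11.40 in C57BL/6J ROSI and between 10.50 and 11.37 in SV129 ROSI, against 10.38 to 10.47 in C57BL/6J control and 10.42 to 10.69 in SV129 control.

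Both aspartate/glutamate carriers, which complete the malate-aspartate shuttle, fell. Slc25a12 (aralar) had 9.83, 9.94, 9.79 and 9.89 in C57BL/6J ROSI, against 10.34, 10.39, 10.36 and 10.35 in C57BL/6J control. SV129 ROSI cultures read 10.18, 10.11, 9.89, 9.99 and 10.09, against 10.22, 10.45, 10.37 and 10.36 in SV129 control. The groups did not overlap, and the log2 change was -0.39 (SE 0.05, 1.31-fold lower, adjusted p = 1e-05). Slc25a13 (citrin) fell by 0.32 (SE 0.05), to 7.06 ± 0.09 in ROSI, against 7.37 ± 0.11 in control cultures. The oxoglutarate carrier of the same shuttle thus moved opposite to its aspartate/glutamate carriers on these arrays. The glycine carrier Slc25a38, the basic amino acid carrier Slc25a29 and the ornithine carrier Slc25a2 had changes of 0.02, 0.01 and 0.07 and did not pass.

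Among carriers of ADP/ATP and phosphate, 4 of 8 rows were higher and 1 was lower (16.3% and 11.6% of all rows), with a median of 0.18. The ATP-Mg/phosphate carriers, which set the adenine nucleotide content of the matrix, went both ways. Slc25a24 had 9.96, 10.03, 9.89 and 9.81 in C57BL/6J ROSI, against 10.55, 10.49, 10.48 and 10.64 in C57BL/6J control. It had 10.59, 10.51, 9.78, 9.69 and 10.33 in SV129 ROSI, against 10.71, 10.88, 11.03 and 11.05 in SV129 control. Within each strain ROSI and control cultures did not overlap, but SV129 ROSI replicates 1 and 2 lay within the C57BL/6J control range. The log2 change was -0.68 (SE 0.11, 1.60-fold lower, adjusted p = 9.8e-05), the lowest of the family.

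Its relative Slc25a25 rose. C57BL/6J ROSI cultures had 8.79, 8.59, 8.66 and 8.77, against 7.74, 7.75, 7.77 and 7.73 in C57BL/6J control. SV129 ROSI cultures had 7.91, 8.42, 8.39, 8.70 and 8.07, against 7.58, 7.79, 7.59 and 7.74 in SV129 control. All ROSI values were above all control values, and the log2 change was 0.78 (SE 0.09, 1.72-fold, adjusted p = 5.2e-06). Slc25a23, of the same kind, rose by 0.56 (SE 0.11), to 9.41 ± 0.40 in ROSI, against 8.87 ± 0.12 in control cultures. Slc25a41 had a change of -0.01 and did not pass. The phosphate carrier Slc25a3 rose by 0.18 (SE 0.03) and the ADP/ATP carrier of heart and muscle, Slc25a4, by 0.20 (SE 0.04). Slc25a4 passed, but not after quantile normalization (0.11, limma adjusted p = 0.011). Both rows of Slc25a31 had a change of 0.18 and did not pass.

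Carriers of nucleotides, cofactors and glutathione gave 6 of 9 rows higher and 0 lower (16.3% and 11.6% of all rows), with a median of 0.38. Slc25a42, which takes coenzyme A into the matrix, had 10.40, 10.30, 10.22 and 10.59 in C57BL/6J ROSI, against 8.92, 9.25, 9.24 and 8.82 in C57BL/6J control. In SV129 ROSI it had 9.29, 9.81, 9.65, 9.66 and 9.65, against 8.90, 9.07, 9.23 and 9.01 in SV129 control. The 4 C57BL/6J ROSI cultures lay above all SV129 ROSI cultures, and all 9 lay above the controls. The log2 change over both strains was 0.92 (SE 0.12, 1.89-fold, adjusted p = 1.5e-05). Slc25a16, linked to coenzyme A as well, rose by 0.59 (SE 0.06).

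The pyrimidine nucleotide carrier Slc25a33 had 8.41, 8.20, 8.01 and 8.30 in C57BL/6J ROSI, against 7.27, 7.37, 7.37 and 7.35 in C57BL/6J control. SV129 cultures had 7.67, 8.28, 7.98, 8.38 and 7.67 with ROSI, against 7.10, 7.38, 7.40 and 7.23 without. ROSI and control cultures did not overlap, and the log2 change was 0.80 (SE 0.10, 1.74-fold, adjusted p = 6.2e-06). Its close relative Slc25a36 had a change of 0.05 (95% interval -0.03 to 0.13) and did not pass. Slc25a39, which imports glutathione, had 12.54, 12.56, 12.41 and 12.68 in C57BL/6J ROSI, against 11.66, 11.68, 11.73 and 11.76 in C57BL/6J control. It had 11.70, 12.50, 12.44, 12.56 and 12.07 in SV129 ROSI, against 11.55, 11.49, 11.62 and 11.53 in SV129 control. Only SV129 ROSI replicate 1 fell into the range of the controls, those of C57BL/6J, and the log2 change was 0.77 (SE 0.09, 1.70-fold, adjusted p = 7.6e-06). Its relative Slc25a40 had a change of -0.12 and did not pass (adjusted p = 0.09), though quantile normalization (-0.17) and median centring (-0.16) each put it among the lower calls. The S-adenosylmethionine carrier Slc25a26 rose by 0.38 and the peroxisomal Slc25a17 by 0.30, while Slc25a32, a carrier of folate or FAD, had 0.09 and did not pass.

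The iron carriers, the mitoferrins, moved apart. Slc25a37 (mitoferrin 1) had 9.44, 9.35, 9.34 and 9.51 in C57BL/6J ROSI, against 10.16, 9.60, 9.76 and 10.32 in C57BL/6J control. In SV129 ROSI it had 10.01, 9.93, 9.20, 9.46 and 9.58, against 10.07, 9.95, 10.37 and 10.47 in SV129 control. Controls were spread widely and SV129 ROSI replicates 1 and 2 fell among them, and the log2 change was -0.57 (SE 0.12, 1.48-fold lower, adjusted p = 0.001). Slc25a28 (mitoferrin 2) rose by 0.28 (SE 0.04), to 9.07 ± 0.10 in ROSI, against 8.79 ± 0.03 in control cultures, and its groups did not overlap.

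All 3 relatives of the uncoupling proteins were lower, where 11.6% of all rows were. Slc25a27, also called uncoupling protein 4, had 7.58, 7.71, 7.77 and 7.71 in C57BL/6J ROSI, against 8.16, 8.26, 8.30 and 8.08 in C57BL/6J control. SV129 ROSI cultures had 8.01, 7.73, 7.72, 7.76 and 7.98, against 8.01, 8.31, 7.96 and 8.02 in SV129 control. The C57BL/6J cultures separated, whereas SV129 ROSI replicates 1 and 6 overlapped with their controls. The log2 change was -0.36 (SE 0.07, 1.29-fold lower, adjusted p = 3.3e-04). Slc25a30 fell by 0.22 and Slc25a14 by 0.16 (adjusted p = 0.0086), and the call of Slc25a14 was lost in 13 of the 17 models that left out 1 array. Uncoupling proteins with other symbols were no members, but of the 4 relatives measured, 3 were higher with ROSI, where 16.3% of all rows were. They were Ucp1, Ucp3 (0.71) and the outer membrane insertase Mtch2 (0.47), and Mtch1 had -0.09 and did not pass.

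Of 6 less studied carriers, 3 were higher and 1 was lower (16.3% and 11.6% of all rows). Slc25a35 had 10.56, 10.50, 10.55 and 10.87 in C57BL/6J ROSI, against 9.33, 9.34, 9.38 and 9.30 in C57BL/6J control. It had 9.09, 9.96, 10.40, 10.71 and 9.60 in SV129 ROSI, against 8.98, 8.93, 8.57 and 8.47 in SV129 control. SV129 ROSI replicate 1 lay under the C57BL/6J controls, and the log2 change was 1.24 (SE 0.16, 2.37-fold, adjusted p = 1.5e-05). Slc25a46, an outer membrane protein of mitochondrial dynamics, rose by 0.50 (SE 0.08) and Slc25a34 by 0.45 (SE 0.10). Slc25a34 lay between 7.53 and 7.83 in C57BL/6J ROSI, against 6.86 to 7.07 in C57BL/6J control, whereas SV129 ROSI (6.80 to 7.51) overlapped SV129 control (6.84 to 7.03). Slc25a45 fell by 0.30 (SE 0.06), to 8.79 to 8.93 in C57BL/6J ROSI and 9.06 to 9.22 in SV129 ROSI, against 9.23 to 9.47 in C57BL/6J control and 9.24 to 9.36 in SV129 control, and the changes of Slc25a47 and Slc25a48 (0.03 and 0.00) did not pass.

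**Figure D3:**
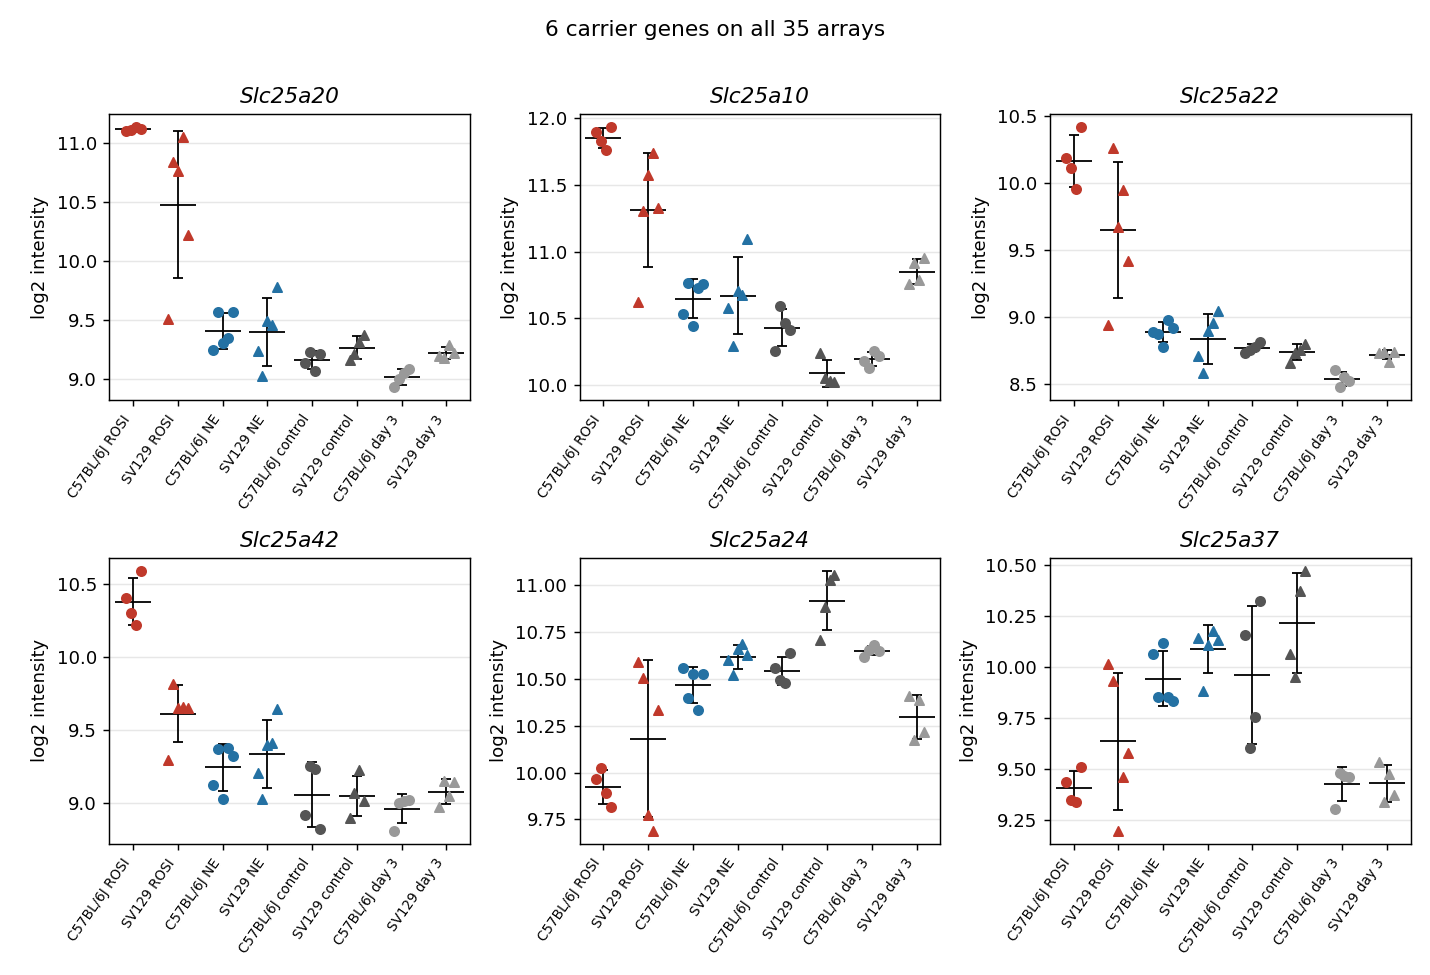
Log2 intensity of Slc25a20, Slc25a10, Slc25a22, Slc25a42, Slc25a24 and Slc25a37 on all 35 arrays by group (circles C57BL/6J, triangles SV129), with horizontal lines for the group mean and bars for the SD. Slc25a20 sits between 11.11 and 11.14 in C57BL/6J ROSI and between 9.07 and 9.23 in C57BL/6J control, and SV129 ROSI spreads from 9.51 to 11.05.

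Many enzymes that work beside these carriers were higher too, in lists picked with results of these data known. All measured genes of 7 partner lists were called higher, where 16.3% of all rows were, namely 3 of 3 of the carnitine shuttle, 3 of 3 malate-aspartate shuttle enzymes, 1 of 1 pyruvate carrier subunit, 5 of 5 of citrate use, 5 of 5 of branched-chain amino acid breakdown, 3 of 3 outer membrane channels and 3 of 3 of heme and iron-sulfur synthesis. Beside Slc25a20, the carnitine acyltransferase Cpt2 rose by 1.20 and carnitine acetyltransferase Crat by 1.31, and Cpt1a by 0.31. Beside Slc25a1, the acetyl-CoA carboxylase Acacb rose by 1.76 and ATP citrate lyase Acly by 0.35. Beside Slc25a44, Bckdhb, a subunit of the branched-chain ketoacid dehydrogenase, rose by 1.40. In the malate-aspartate shuttle, the aminotransferases Got1 (0.54) and Got2 (0.47) and malate dehydrogenase Mdh2 (0.80) rose although Slc25a12 and Slc25a13 fell. Mpc1 of the pyruvate carrier, which is outside the family, rose by 0.98, and Alas1, the first enzyme of heme synthesis, by 1.15.

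Some markers of cell state moved with the carriers. Beside the counts that follow, 16.3% of all rows were called higher with ROSI and 11.6% lower. Of 6 adipocyte markers, 5 were higher with ROSI, all but Lep, and their mean level per culture lay between 11.47 and 11.53 in C57BL/6J ROSI and between 10.58 and 11.46 in SV129 ROSI, against 10.12 to 10.55 in C57BL/6J control and 9.74 to 10.19 in SV129 control. Of 5 preadipocyte and fibroblast markers, 3 were lower, with 9.49 to 9.67 in C57BL/6J ROSI and 9.34 to 10.49 in SV129 ROSI, against 10.47 to 10.56 in C57BL/6J control and 10.32 to 10.77 in SV129 control. The part of these markers in the carrier results was not tested. In such bulk cultures, fewer cells of a type and less RNA per cell cannot be told apart. Of 7 macrophage and leukocyte markers 0 were higher and 1 was lower (Itgam), of 5 endothelial markers 0 and 1 (Tek), and of 4 skeletal muscle and 4 epithelial markers 0 passed in limma.

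NE did not move a carrier past the threshold. Of the 41 rows, 0 were called in NE (n = 10) against control (n = 8) cultures by limma, and 15 had an unadjusted p under 0.05. Among all rows 0% were called higher and 0% lower, with 2053 at an unadjusted p under 0.05, and the members also gave 0 under every alternative setting. The smallest adjusted p in the family was 0.078, for Slc25a10. It ranged from 10.29 to 11.09 (median 10.69) in NE, against 10.03 to 10.60 (median 10.25) in control cultures, a log2 change of 0.40 (SE 0.09, 95% interval 0.22 to 0.58). Over both strains the groups overlapped. Next in size were Slc25a35 (0.28, adjusted p = 0.11) and Slc25a42 (0.24, adjusted p = 0.23), and the lowest value was that of Slc25a24 (-0.19, adjusted p = 0.13). The median change was 0.04 over the family and 0.01 over all rows.

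Within the strains, NE cultures were set beside the untreated ones for several carriers that ROSI moved. In SV129, every NE culture of Slc25a10 (10.29 to 11.09) lay above every SV129 control (10.03 to 10.24), a change of 0.58, while in C57BL/6J NE (10.45 to 10.76) it overlapped C57BL/6J control (10.26 to 10.60), a change of 0.21. Slc25a25 lay between 7.81 and 8.11 in SV129 NE, against 7.58 to 7.79 in SV129 control, and Slc25a24 between 10.52 and 10.68 in SV129 NE, against 10.71 to 11.05 in SV129 control, so that these groups did not overlap either. These 3 carriers were picked after their values were seen. Both rows of Slc25a31, which have low intensities, also lay above SV129 control in SV129 NE. How many of all rows separate in this way was not counted, so nothing about the family is read from it. The limma test over both strains called none of these carriers. Nor did the test of the strain difference of the NE change, which was -0.37 for Slc25a10 (limma, adjusted p = 0.5). Slc25a20 had 9.25, 9.57, 9.31, 9.35 and 9.57 in C57BL/6J NE (mean 9.41 ± 0.15, SD). The C57BL/6J controls had 9.07 to 9.23 (mean 9.16 ± 0.07), so these groups did not overlap. In SV129 NE it had 9.24, 9.02, 9.50, 9.46 and 9.78 (mean 9.40 ± 0.28), against 9.27 ± 0.10 in SV129 control. NE replicate 6 of SV129 was the highest NE culture of Slc25a20, and replicate 2 the lowest. For Slc25a22 the mean was 8.89 ± 0.07 in C57BL/6J NE and 8.77 ± 0.03 in C57BL/6J control, and 8.84 ± 0.19 in SV129 NE and 8.74 ± 0.06 in SV129 control. For Slc25a42 it was 9.24 ± 0.16 in C57BL/6J NE and 9.06 ± 0.22 in C57BL/6J control, and 9.34 ± 0.23 in SV129 NE and 9.05 ± 0.14 in SV129 control. Slc25a42 values overlapped between NE and control cultures in each strain, and so did those of Slc25a22. Among the carriers that fell with ROSI, Slc25a12 had 10.27 ± 0.07 in C57BL/6J NE and 10.36 ± 0.02 in C57BL/6J control, and 10.19 ± 0.10 in SV129 NE and 10.35 ± 0.09 in SV129 control. Slc25a45 had 9.38 ± 0.04 in C57BL/6J NE and 9.34 ± 0.10 in C57BL/6J control, and 9.27 ± 0.14 in SV129 NE and 9.30 ± 0.06 in SV129 control.

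ROSI and NE cultures were also set against each other, a comparison that shares its ROSI arrays with that against control. In ROSI (n = 9), 20 of 41 rows were higher and 7 lower than in NE (n = 10), where 15.8% of all rows were higher and 12% lower in limma. Of all calls 56.9% were higher, but 47.1% after quantile normalization, where the members gave 19 higher and 8 lower. The median change was 0.15 over the family and 0.00 over all rows. The carriers with the largest differences were Slc25a20 (1.38, SE 0.16), Slc25a22 (1.03, SE 0.13) and Slc25a35 (0.96, SE 0.15), all with adjusted p of 5.8e-05 or less. Slc25a20 ranged from 9.51 to 11.14 in ROSI, against 9.02 to 9.78 in NE cultures, so that SV129 ROSI replicate 1 lay among the NE cultures. Lower in ROSI than in NE were Slc25a37 (-0.49, SE 0.08), Slc25a24 (-0.49, SE 0.10) and Slc25a27 (-0.32, SE 0.06). Both aspartate/glutamate carriers were lower here as well, Slc25a12 with -0.27 and Slc25a13 with -0.18. Markers moved in the same comparison, with 5 of 6 adipocyte markers higher, 5 of 5 preadipocyte and fibroblast markers lower, 2 of 7 macrophage and leukocyte markers higher, and 3 of 5 endothelial markers higher and 1 lower. Their part in the carrier results was not tested.

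Between day 3 and day 7, carriers were called higher at a share near that of all rows. Of the 41 rows, 5 (12.2%) were higher and 0 lower in day 7 control (n = 8) than in day 3 (n = 8) cultures. Over all rows, limma called 9.69% higher and 5.6% lower. The median change was 0.01 over the family and 0.02 over all rows. Of all calls 63.4% were higher, but 52.7% after quantile normalization and 46.6% after median centring. The members then gave 4 higher and 2 lower, and 4 higher and 3 lower, since Slc25a25 and Slc25a28 (and Slc25a17 after median centring) were called lower and the call of Slc25a36 was lost.

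Slc25a37, the iron carrier that was lower with ROSI, was the member that rose most with time. It had 10.16, 9.60, 9.76 and 10.32 in C57BL/6J control, against 9.30, 9.48, 9.47 and 9.46 in C57BL/6J day 3. SV129 control cultures had 10.07, 9.95, 10.37 and 10.47, against 9.53, 9.34, 9.48 and 9.37 in SV129 day 3. No day 7 value overlapped a day 3 value, and the log2 change was 0.66 (SE 0.10, 1.58-fold, adjusted p = 1.6e-04). Slc25a23 (0.33, SE 0.06, adjusted p = 0.001), Slc25a27 (0.24, SE 0.05) and Slc25a13 (0.22, SE 0.04) rose as well, the last of these to 7.37 ± 0.11 at day 7, against 7.15 ± 0.07 at day 3. Slc25a36 passed narrowly (0.15, SE 0.04, adjusted p = 0.0096), and its call was lost in 13 of the 16 models that left out 1 array. Slc25a23 was not called with all 35 arrays in 1 model (adjusted p = 0.01).

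Macrophage markers moved with time in these cultures. At day 7, 6 of 7 were higher, where 9.69% of all rows were, with Mrc1 up by 1.85 and Itgam by 0.91. Their mean level per culture lay between 8.61 and 8.90 in C57BL/6J control and 8.45 and 8.55 in SV129 control, against 7.84 to 8.06 in C57BL/6J day 3 and 7.55 to 7.70 in SV129 day 3. Their part in the day 7 results was not tested. A row shared by Slc25a51 and the integrin gene Itgax, which is no member, was also higher at day 7 (0.59, adjusted p = 5.4e-04). Of 5 preadipocyte markers, 2 were lower at day 7, where 5.6% of all rows were, and of 6 adipocyte markers 0 passed in limma.

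The change with time differed between the strains for 5 carriers, 4 of them higher and 1 lower in the change of C57BL/6J minus that of SV129. In this interaction test in limma, 2.78% of all rows were called higher and 1.53% lower. Slc25a10 had 10.26, 10.60, 10.46 and 10.41 in C57BL/6J control, against 10.18, 10.13, 10.26 and 10.22 in C57BL/6J day 3. In SV129 control it had 10.24, 10.06, 10.03 and 10.03, against 10.75, 10.91, 10.78 and 10.95 in SV129 day 3. The dicarboxylate carrier was thus 0.23 higher at day 7 in C57BL/6J and 0.76 lower in SV129, and the difference was 1.00 (SE 0.10, adjusted p = 2.7e-05). Slc25a35 had 9.33, 9.34, 9.38 and 9.30 in C57BL/6J control, against 8.89, 8.94, 8.91 and 9.04 in C57BL/6J day 3. It had 8.98, 8.93, 8.57 and 8.47 in SV129 control, against 9.21, 9.14, 9.18 and 9.27 in SV129 day 3. Within each strain the days did not overlap and went opposite ways, and the difference was 0.86 (SE 0.13, adjusted p = 5.1e-04).

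Slc25a24 went the other way. C57BL/6J control cultures had 10.55, 10.49, 10.48 and 10.64, against 10.62, 10.65, 10.68 and 10.65 in C57BL/6J day 3. SV129 control cultures had 10.71, 10.88, 11.03 and 11.05, against 10.41, 10.17, 10.39 and 10.22 in SV129 day 3. The days overlapped in C57BL/6J and separated in SV129, and the difference was -0.73 (SE 0.10, adjusted p = 3.5e-04). Slc25a23 rose by 0.55 in C57BL/6J and 0.11 in SV129, a difference of 0.44 (SE 0.06, adjusted p = 4.6e-04), and Slc25a39 had changes of 0.16 and -0.17, a difference of 0.33 (adjusted p = 0.0025). With all 35 arrays in 1 model, 1 of these 5 calls was kept, Slc25a10, and the adjusted p of the others was 0.021 (Slc25a24), 0.069 (Slc25a35), 0.22 (Slc25a23) and 0.27 (Slc25a39). Of all calls 64.5% were higher, but 49.5% after median centring, where the members again gave 4 and 1. The mean level of the adipocyte markers was 10.12 to 10.55 in C57BL/6J control and 9.94 to 10.08 in C57BL/6J day 3, and 9.74 to 10.19 in SV129 control and 10.49 to 10.64 in SV129 day 3. Their part in the strain difference was not tested. SV129 control replicates 5 and 6 held the lowest Slc25a35 and the highest Slc25a24 values of their group. Over the alternative settings, which include leaving out both, the difference ran from 0.64 to 1.01 for Slc25a35. For Slc25a24 it ran from -0.82 to -0.61.

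**Figure D4:**
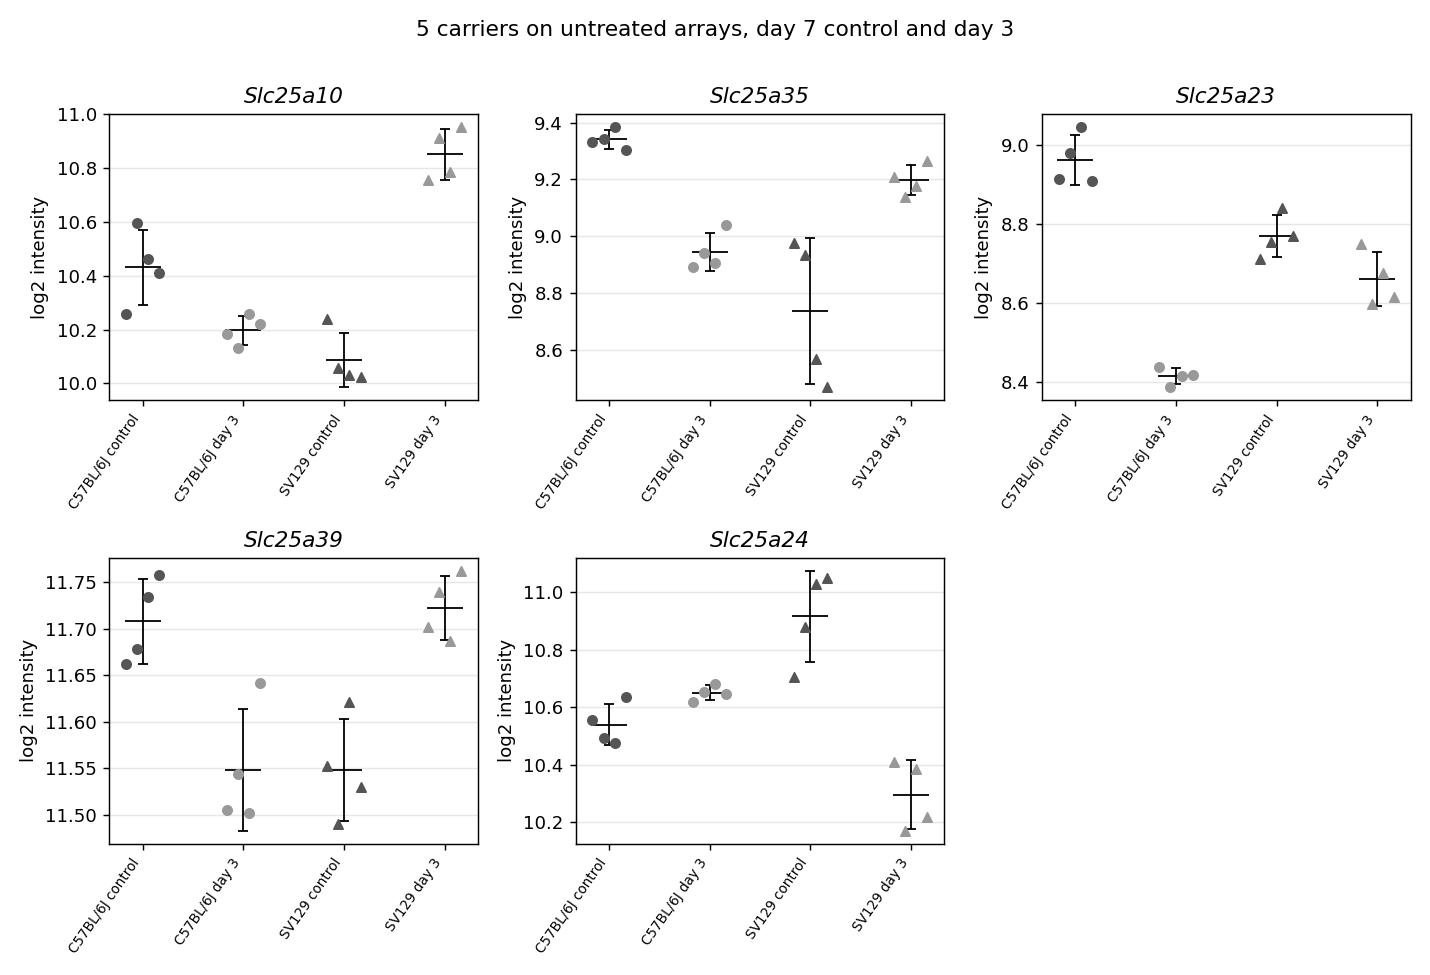
Log2 intensity of Slc25a10, Slc25a35, Slc25a23, Slc25a39 and Slc25a24 in untreated cultures, by group (C57BL/6J control, C57BL/6J day 3, SV129 control, SV129 day 3; day 7 is dark, day 3 light), with the mean and the SD. Slc25a10 is 0.23 higher at day 7 in C57BL/6J and 0.76 lower in SV129, and Slc25a24 is higher at day 7 in SV129, with a difference of -0.73 between the strains.

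For the strain itself and for the drug responses of the strains, no member was called. Over all 35 arrays, with condition as a covariate, limma called 0 of 41 rows between C57BL/6J and SV129. Of all rows, 2.75% were called higher and 1.48% lower. An unadjusted p under 0.05 was reached by 8 of the 41 rows and by 3727 of all 17958 rows. Of all calls 65.0% were higher, but 54.9% after median centring. Slc25a35 came nearest (0.38, SE 0.11, adjusted p = 0.021), and it passed without SV129 ROSI replicate 4 (adjusted p = 0.0067). Of 7 macrophage and leukocyte markers 6 were higher in C57BL/6J, and of 5 preadipocyte and fibroblast markers 2 were lower. The 6 adipocyte, 5 endothelial, 4 skeletal muscle and 4 epithelial markers did not pass in limma. The part of these markers in the strain results was not tested. For the strain difference of the ROSI change, limma called 0 members, and 0.00557% of all rows were higher and 0% lower. Here 7 members and 1611 of all 17958 rows had an unadjusted p under 0.05. Slc25a42 rose by 1.32 in C57BL/6J and by 0.56 in SV129, a difference of 0.76 (95% interval 0.43 to 1.08, adjusted p = 0.18). Slc25a20 had a difference of 0.75 (0.14 to 1.35, adjusted p = 0.52), which was 0.34 without SV129 ROSI replicates 1 and 6. For the strain difference of the NE change, 0 members were called, and 0% of all rows were higher and 0% lower. In that limma test 6 members and 1747 of all 17958 rows had an unadjusted p under 0.05.

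Not all carriers could be followed. The reference annotation holds 47 protein-coding Slc25a genes, and 7 of them had no row with a single symbol. A row shared by Slc25a5, the ADP/ATP carrier of most tissues, and Gm5560 was higher with ROSI in limma (0.45, SE 0.06, adjusted p = 2.2e-05). So was a row shared by Slc25a51 and 9130208E07Rik (0.59, SE 0.06, limma adjusted p = 1.5e-06). The row shared by Slc25a51 and Itgax did not pass with ROSI (-0.30, limma adjusted p = 0.12). The signal of such rows cannot be assigned to a single gene.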

How the data were processed

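The authors made the deposited log2 values from Mouse Exon 1.0 ST arrays using RMA, which corrects background, normalizes between arrays and summarises probes, in Affymetrix Power Tools, with versions not given in the sources used here. Raw intensities were not read. Groups and replicate numbers were taken from each culture's own label. A treatment note in the labels lists both drugs for every culture and was not used to group them. The methods of the study state that some arrays had been left out as outliers by eye, and those are not analysed here.

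All 17958 rows entered limma 3.58.1 (R 4.3.3, data.table, version 1.17.8) with strain as a covariate and moderated two-sided tests (eBayes), and with Benjamini-Hochberg adjustment over all rows at 0.01. Only the arrays of the groups compared entered a model, and all 35 did for the strains. Folds are 2 to the power of the log2 change. Genome positions are those of GRCm38.p6 genes, matched by gene ID for all 41 rows. Motifs were searched over the 250 bases before each start. Figures were drawn with Python 3.11.15 and matplotlib 3.10.9. Simulated data with changes of known size were used to test the model.

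Every member could be named. Values of each array were given for the largest changes that passed (up to 8 higher and 4 lower for ROSI against control, up to 3 each way elsewhere) and for up to 4 strain differences. Other members named by value, partner genes, and markers singled out were picked with their values in view. The members, the gene lists and the alternatives were chosen with earlier results of these data known. The alternatives were a threshold of 0.05, quantile normalization, median centring, leaving out the dimmest rows, array weights, a replicate block, no strain term, all 35 arrays in 1 model, and leaving out arrays. An array has no sequencing depth, so the number of arrays and their spread limit the precision. Many probes share a row, and a row with several symbols was assigned to no gene.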

Additional observations from a re-analysis of the deposited data

Results flagged for a closer look

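In 17 rows, 136 sets of 4 or 5 arrays of 1 group were screened for an array far from the others, and 13 had one. Chance alone gives about 1 in 20 groups. The value is the gap of that array to its nearest neighbour as a share of the range of its group.

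Among the carriers that rose with ROSI, Slc25a10 in SV129 control replicate 1 was high (10.24, share 0.851), Slc25a35 in C57BL/6J ROSI replicate 6 was high (10.87, 0.848) and Slc25a22 in SV129 day 3 replicate 5 was low (8.67, 0.856). Slc25a42 in C57BL/6J day 3 replicate 2 (8.81, 0.904) and Slc25a33 in C57BL/6J control replicate 2 (7.27, 0.852) were low, and Slc25a39 in C57BL/6J NE replicate 5 was high (11.95, 0.721). Slc25a44 had 3 such arrays, C57BL/6J ROSI replicate 4 (low, 11.19, 0.868), C57BL/6J control replicate 6 (high, 10.47, 0.831) and SV129 day 3 replicate 3 (low, 10.46, 0.868).

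Of the carriers that fell, Slc25a37 was low in SV129 NE replicate 2 (9.88, 0.767) and in C57BL/6J day 3 replicate 2 (9.30, 0.886), and Slc25a27 was high in SV129 NE replicate 6 (8.18, 0.752). Row 6896995 of Slc25a31, which did not pass with ROSI, was high in SV129 control replicate 4 (5.86, 0.898).

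The change from day 3 to day 7 differed between C57BL/6J and SV129 in limma's interaction test for Slc25a10 (1.00), Slc25a35 (0.86), Slc25a23 (0.44), Slc25a39 (0.33) and Slc25a24 (-0.73). Only Slc25a10 kept its call with all 35 arrays in 1 model.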

How the results depend on the processing

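The count of carriers called with ROSI against control was 29, and it lay between 28 and 29 when each array was left out in turn. NE against control gave 0 under every setting, and the strain differences of the ROSI and NE changes gave 0 to 0 when arrays were left out. Leaving out 1 array gave 4 to 7 calls for day 7 against day 3, 25 to 29 for ROSI against NE, 0 to 1 for C57BL/6J against SV129 and 5 to 7 for the strain difference of the day 7 change. At a threshold of 0.05 the counts were 11 for day 7 against day 3 (7 higher, 4 lower), 1 for C57BL/6J against SV129 and 9 for the strain difference of the day 7 change. With all 35 arrays in 1 model the last of these was 1. The call of Slc25a17 in ROSI against NE was lost in 13 of the 19 models that left out 1 array. The largest changes, those given with values for each array, kept their direction under these settings.

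The replicate numbers showed no clear pairing of the cultures. Over 41 pairs of the same strain and number, the correlation of deviations from the group means had a median of -0.01. It ran from -0.31 to 0.30, and 6 were over 0.1. Groups are small and arrays recur among the pairs, so this check cannot exclude a pairing. With the replicate block, the counts were 21 for ROSI against control (17 higher, 4 lower, without Slc25a3, Slc25a4, Slc25a14, Slc25a23, Slc25a27, Slc25a30, Slc25a34 and Slc25a45), 1 for day 7 against day 3, 0 for ROSI against NE and 2 for the strain difference of the day 7 change. In ROSI against NE the block left 0 calls over all rows too, with Slc25a20 at 1.29. The cause was not tested.

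The lowest row means lie close to background, so the values of Slc25a21 and Slc25a31 limit what a change there can show. Array weights and the filter on dim rows changed no count of called carriers by over 1.5 times. Over all rows, calls higher and lower for the strain difference of the day 7 change were 499 and 275, but 950 and 1054 with array weights, 991 and 788 at 0.05, 306 and 135 without SV129 control replicates 5 and 6, 197 and 48 with the replicate block and 47 and 48 with all 35 arrays in 1 model. For C57BL/6J against SV129 they were 493 and 265, but 882 and 349 with array weights, 897 and 669 at 0.05 and 316 and 98 with the replicate block. The block gave 1978 and 885 for ROSI against control (2923 and 2081 without it) and 766 and 649 for day 7 against day 3 (1740 and 1005 without it, and 2860 and 1694 at 0.05). For the strain difference of the ROSI change, 1 and 0 became 20 and 17 with all 35 arrays in 1 model and 4 and 10 with array weights.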
